A study of Mus musculus with 60 samples.

Results

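The regions described here were stretches of autosomal chromatin that carried a called H3K27me3 peak in cells with H3WT and in cells with H3R2C, and in which no peak was called in cells with H3R26C. They were found by merging the overlapping or touching peaks of the 8 independent anti-H3K27me3 lists of H3WT, H3R2C, H3R8C and H3R26C, and by keeping the autosomal regions with a peak in both H3WT lists, in both H3R2C lists and in neither H3R26C list. This rule gave 725 regions out of 36272 merged regions in all, or 9.78% of the 7412 autosomal regions called in both H3WT and both H3R2C lists. The data came from CUT&RUN, in which a nuclease tethered by an antibody cuts out the bound chromatin fragments for sequencing. The cells were C3H 10T1/2, a mouse mesenchymal progenitor line. All 5 lines had received by lentivirus, under the EF1 promoter and with puromycin selection, a human H3.1 transgene tagged at its C-terminus with HA and FLAG, either wild type (H3WT) or with the arginine at tail position 2, 8, 17 or 26 changed to cysteine (H3R2C, H3R8C, H3R17C, H3R26C). The mouse histone genes were left in place in every line, so mutant and endogenous H3 were present together. Each genotype and antibody had 3 labelled replicates, of which a pair held identical values, so that 2 independent lists per group remained. For H3R17C with anti-H3K27me3 1 list remained, because the name of the other list gave another mark than its label. Peak lists hold no expression, and the identity of the cells was not checked here.

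H3K27me3 is the trimethylation of lysine 27 on histone H3. It is written by the enzyme EZH2 or EZH1 within Polycomb repressive complex 2 (PRC2), whose subunit EED binds the finished mark and stimulates further methylation, so that the mark spreads into broad domains. In mesenchymal progenitors such domains cover the starts of many developmental regulators that are kept silent, and CpG islands, short stretches dense in CG dinucleotides, are where PRC2 is known to be recruited. Arginine 26 lies next to lysine 27 on the tail. The HA tag reports where the transgenic histone itself was found.

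The 5 regions with the highest H3WT signal differed in their density of CG dinucleotides, so the 200 bp window with the most of them is shown for each, with CG in capitals (plus strand, GRCm38, from the RefSeq assembly).

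Casd1 region, chr6:4601245-4601444: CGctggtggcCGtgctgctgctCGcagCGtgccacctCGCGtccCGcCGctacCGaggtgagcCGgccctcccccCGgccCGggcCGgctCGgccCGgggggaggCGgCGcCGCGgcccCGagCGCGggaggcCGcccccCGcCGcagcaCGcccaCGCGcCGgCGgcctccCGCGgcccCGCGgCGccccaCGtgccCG
upstream chromosome 6 region, chr6:4345105-4345304: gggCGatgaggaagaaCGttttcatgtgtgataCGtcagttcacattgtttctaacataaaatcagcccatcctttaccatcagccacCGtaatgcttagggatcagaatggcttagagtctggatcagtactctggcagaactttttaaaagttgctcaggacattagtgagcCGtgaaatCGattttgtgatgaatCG
downstream chromosome 6 region, chr6:4375732-4375931: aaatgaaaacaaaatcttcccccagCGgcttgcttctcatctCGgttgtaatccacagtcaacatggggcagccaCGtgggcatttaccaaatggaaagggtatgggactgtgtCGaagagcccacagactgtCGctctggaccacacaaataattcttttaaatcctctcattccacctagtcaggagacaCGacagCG
region beyond Tprg, chr16:25124421-25124620: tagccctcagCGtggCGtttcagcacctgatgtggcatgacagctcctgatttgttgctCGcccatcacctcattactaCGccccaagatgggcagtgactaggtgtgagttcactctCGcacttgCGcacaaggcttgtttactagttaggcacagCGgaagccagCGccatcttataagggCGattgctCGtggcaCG
region beyond Dmrta1, chr4:89573608-89573807: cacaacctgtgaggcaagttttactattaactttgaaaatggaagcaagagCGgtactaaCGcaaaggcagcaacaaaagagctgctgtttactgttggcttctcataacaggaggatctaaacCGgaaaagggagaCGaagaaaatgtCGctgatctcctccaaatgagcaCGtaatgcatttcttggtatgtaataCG

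The window in Casd1, which spans the end of the first coding exon and the beginning of the first intron, held 37 CG dinucleotides and 86.5% G and C. The 4 other windows lay outside protein-coding genes and held 7, 7, 11 and 7 CG dinucleotides. Over all 725 regions the best window held a median of 7 CG dinucleotides, against 9 in the 810 autosomal regions lost only in H3R2C (called in both H3WT and both H3R26C lists and in neither H3R2C list) and 8 in the 5560 autosomal regions kept in every H3WT, H3R2C and H3R26C list. Across the whole region the median density was 8.85 CG per kb, against 12.2 for those lost only in H3R2C and 9.54 for the kept ones. The median share of bases in repeats was 23.4%, 17.4% and 22.0% in the same order. These values describe the sets, and no test was made.

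The regions had a median length of 6.25 kb, with quartiles of 4.5 and 8.7 kb and extremes of 1.25 and 58.95 kb, and together they covered 5.40 Mb. The kept regions were longer, with a median of 11.35 kb. Signal is given here as the total signal of the overlapping peaks divided by the median of the same library over the 5589 regions called in all 8 libraries, so that a value of 1 is a typical shared region. By this scale the median H3WT signal was 0.330 in regions lost only in H3R26C, 0.381 in those lost only in H3R2C, 0.221 in the 388 lost in both and 0.905 in the kept ones. The median of the 725 regions was 0.302 and 0.363 in the 2 H3WT libraries and 0.506 and 0.463 in the 2 H3R2C libraries. These 4 values, and the absence of an H3R26C peak, are what the regions were chosen by, so they are given as a description. No region held any called signal in H3R26C.

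Most of the regions had at least 1 value close to the level at which peaks were called. The weakest peak of an H3R26C list had a scaled signal of 0.136 in replicates 1 and 2 and 0.195 in replicate 3, and in 161 of the 725 regions all H3WT and H3R2C values were above 2 times the higher of these levels. In 25 regions they were above 5 times that level and in 7 regions above 10 times. The nearest H3R26C peak was a median of 24.8 kb away in replicates 1 and 2 and 65.1 kb in replicate 3, and in 136 and 72 regions it was within 5 kb. Just inside the rule were regions near Nid2, at Ankub1 and near Bmpr1b, each with 0.146 in its weakest H3WT library. Just outside it were regions near Sidt1, Pcsk1 and Zfhx3, each with a peak of 0.136 in H3R26C replicates 1 and 2 and none in replicate 3. The 2 H3R26C lists differed in reach, covering 120 Mb in replicates 1 and 2 and 64.2 Mb in replicate 3. If replicate 3 alone had defined the loss there would have been 1764 regions, and 828 if replicates 1 and 2 had. With H3WT replicate 3 alone in place of both H3WT lists the number was 1139.

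The strongest region was the largest as well. It lay at chr6:4547551-4606500, was 58.95 kb long and held the start of Casd1, which encodes a sialic acid O-acetyltransferase and neighbours the imprinted Peg10 and Sgce genes. Its scaled H3K27me3 signal was 9.93 and 8.25 in H3WT, 7.67 and 9.62 in H3R2C, 9.01 and 7.46 in H3R8C and 8.39 in H3R17C. All 7 values lay within a narrow band, and no peak was called in either H3R26C library.

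A pair of regions upstream of it, at chr6:4331851-4363050 and chr6:4368301-4399050, contained no protein-coding gene, the nearest start being that of the collagen gene Col1a2, 142 and 106 kb away. The first had 7.24 and 5.52 in H3WT, 4.64 and 5.06 in H3R2C, 7.22 and 6.14 in H3R8C and 5.81 in H3R17C. The second had 6.64 and 5.49 in H3WT, 4.39 and 4.95 in H3R2C, 7.20 and 5.61 in H3R8C and 5.77 in H3R17C. H3R8C overlapped H3WT in both. With a further region at chr6:4609651-4627850 they formed a run of 4 neighbouring regions whose H3WT signals summed to 22.0.

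**Figure D1:**
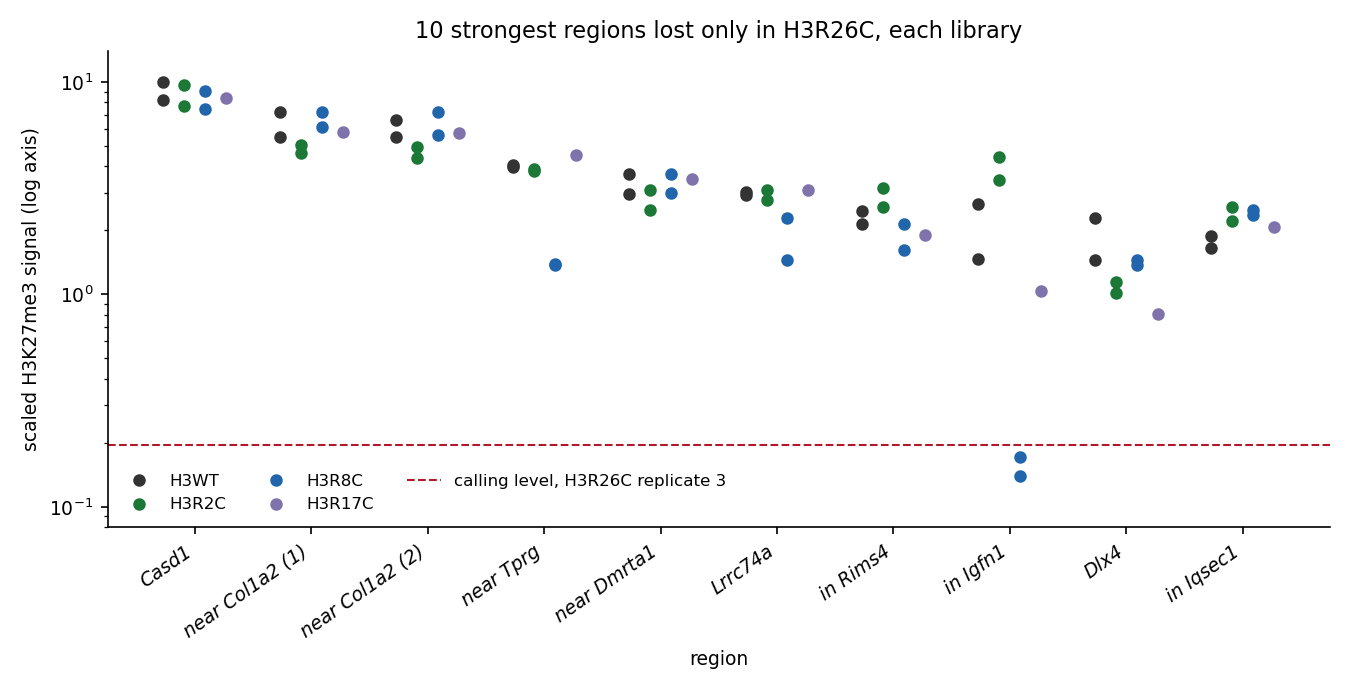
Scaled H3K27me3 signal (log axis) of each library in the 10 regions with the highest mean H3WT signal; points are libraries, and the dashed line is the level of the weakest peak in H3R26C replicate 3, 0.195. No H3R26C point exists because no peak was called there. The Casd1 region sits near 9 in every other genotype, whereas H3R8C falls below the line in the region within Igfn1.

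The next strongest regions included several in which H3R8C also differed from H3WT. The region at chr16:25098401-25137150, 150 kb from the nearest protein-coding start (Tprg), had 4.05 and 3.95 in H3WT, 3.79 and 3.90 in H3R2C, 1.37 and 1.39 in H3R8C and 4.50 in H3R17C, so that both H3R8C libraries were below all others. The region within Igfn1, a gene of skeletal muscle, at chr1:135958451-136002550 had 1.47 and 2.65 in H3WT, 4.44 and 3.44 in H3R2C, 0.171 and 0.139 in H3R8C and 1.03 in H3R17C. H3R8C was again the lowest, near the level of the weakest called peaks. A region named for its length, and not among the 10 strongest, held the starts of Gtsf2 and Nckap1l (a haematopoietic regulator of actin). It lay at chr15:103439151-103465850 and had 1.51 and 1.58 in H3WT, 2.80 and 2.96 in H3R2C, 0.306 and 0.191 in H3R8C and 2.27 in H3R17C.

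In other regions H3R8C overlapped H3WT, or differed from it by less. An intergenic region 105.4 kb from Dmrta1, at chr4:89558401-89574000, had 3.68 and 2.96 in H3WT, 2.48 and 3.11 in H3R2C, 3.68 and 3.01 in H3R8C and 3.50 in H3R17C. At the start of Lrrc74a, chr12:86727051-86746350, the values were 3.04 and 2.94 in H3WT, 2.78 and 3.09 in H3R2C, 1.45 and 2.28 in H3R8C and 3.09 in H3R17C, so that both H3R8C libraries were below all others there too. Iqsec1, which encodes an exchange factor for ARF GTPases, held a region at chr6:90853601-90875650 with 1.66 and 1.89 in H3WT, 2.22 and 2.56 in H3R2C, 2.37 and 2.49 in H3R8C and 2.07 in H3R17C, both H3R8C libraries being above H3WT. Dlx4, a homeobox gene of the distal-less family, lay in a region at chr11:95137551-95149900 with 1.45 and 2.28 in H3WT, 1.14 and 1.02 in H3R2C, 1.37 and 1.45 in H3R8C and 0.807 in H3R17C. Among the 10 longest regions was also that of Stra6, which encodes a receptor for retinol uptake, at chr9:58060451-58092650, with 1.23 and 1.34 in H3WT, 4.94 and 5.35 in H3R2C, 1.62 and 1.49 in H3R8C and 1.48 in H3R17C. There the H3R2C libraries stood above the rest.

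By annotation, 189 of the 725 regions (26.1%, 95% exact binomial interval 22.9 to 29.4) came within 1 kb of a transcription start site, 150 overlapped an exon, 110 an intron and 276 (38.1%) no gene. The share near a start was 41.5% among regions lost only in H3R2C, 38.3% among kept regions, 15.7% among those lost in both and 32.3% over all 10531 autosomal regions called in both H3WT lists. The interval covers counting error only, and neighbouring regions are not independent. A protein-coding start lay inside 91 regions (12.6%), against 29.4% of those lost only in H3R2C and 23.3% of kept ones. The surroundings held somewhat more genes than those of the other sets, with wide overlap. The median number of protein-coding starts within 500 kb on either side was 13 for regions lost only in H3R26C (quartiles 7 and 23). It was 7 for those lost only in H3R2C and 8 for those lost in both. Kept regions had 11 (quartiles 6 and 18), and all regions called in both H3WT lists had 10.

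**Figure D2:**
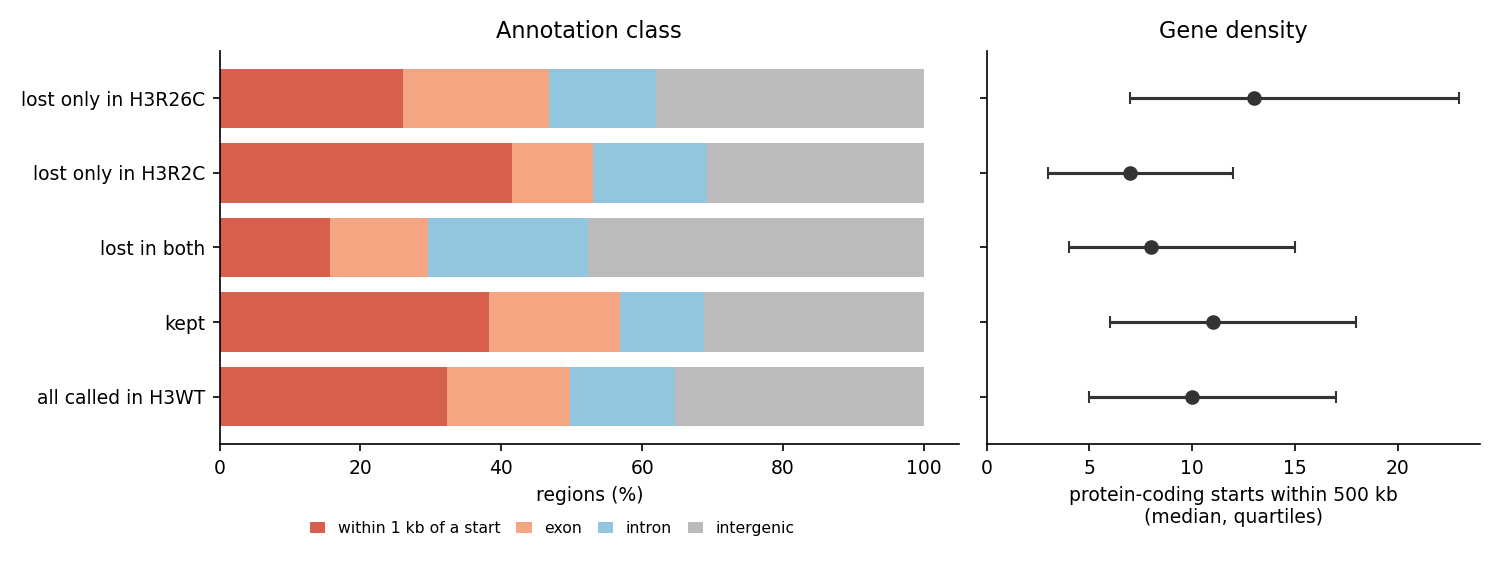
Left, the percentage of regions of each set by annotation class; right, the number of protein-coding starts within 500 kb on either side of a region (point, median; bars, quartiles). Regions lost only in H3R26C have fewer starts near them (26.1%) than those lost only in H3R2C (41.5%) but a higher median of genes around them (13 against 7).

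Of the 1673 protein-coding genes whose start lay in a region called in both H3WT and both H3R2C lists, 92 (5.50%) had it in a region lost only in H3R26C and 1453 in a kept region. Counts for lists of developmental regulators, which are classical Polycomb targets, are given beside this share as a description, with no test. Of 53 homeobox genes outside the Hox clusters whose start lay in a region called in H3WT and H3R2C, Dlx4 alone was in a region lost only in H3R26C, whereas 50 starts were in kept regions. None of the 31 Hox genes, 25 basic helix-loop-helix factors, 20 genes of the Wnt pathway or 59 genes for ion channels and transmitter receptors with such a region was among them, and 31, 25, 17 and 57 respectively were in kept regions. A gene with several starts can be counted in more than a single set. Neighbouring genes can also share a region: the starts of the 1453 genes lay in 1296 kept regions. The genes of a list, such as those of a Hox cluster, are therefore not separate regions. Short lists of bone, cartilage, fat and muscle genes (17, 15, 16 and 21 genes) had 1, 3, 2 and 5 starts in regions called in H3WT and H3R2C. They gave 0 as well. The lists hold only a chosen part of such genes, and Pth1r and Notum, named below, were not counted in them.

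Of 29 immune receptors and cytokines with such a region, 4 were members, beside the 5.50% of all protein-coding starts, and nothing is read from so small a count: Il5, Tnfrsf8, Il31 and Cd5l. Il5, the cytokine of eosinophils, lay at chr11:53713401-53722550 with 0.551 and 0.796 in H3WT, 0.884 and 0.693 in H3R2C, 0 and 0.449 in H3R8C and 0.823 in H3R17C. Tnfrsf8, which encodes the receptor CD30, had 0.438 and 0.585 in H3WT, 0.300 and 0.232 in H3R2C, 0.584 and 0.545 in H3R8C and 0.328 in H3R17C. The 2 H3R8C libraries of Tnfrsf8 were level with H3WT, whereas 1 of those of Il5 had no peak.

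Among signalling genes were Bmp10, a ligand of the BMP family known from the heart, and Efna3, an ephrin. Bmp10 (chr6:87425051-87433650) had 0.839 and 0.643 in H3WT, 0.502 and 0.365 in H3R2C, 0.158 and 0.149 in H3R8C and 0.764 in H3R17C, with both H3R8C libraries below the rest. Efna3 (chr3:89318751-89324550), whose region was dense in CG at 48.6 per kb, had 0.375 and 0.729 in H3WT, 0.227 and 0.453 in H3R2C, 0.298 and 0.439 in H3R8C and none in H3R17C. The T-box gene Tbx10 (chr19:3990301-3996350) had 0.701 and 0.828 in H3WT, 0.439 and 0.787 in H3R2C, 0.473 and 0.624 in H3R8C and 0.587 in H3R17C. The olfactory receptor Olfr1358 was the only 1 of 80 olfactory and vomeronasal receptors with such a region, at 0.166 and 0.223 in H3WT.

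Many of the regions lay next to another of the set, about as often as regions lost only in H3R2C did. The set made up 6.88% of the autosomal regions called in both H3WT lists, and grouping was not tested. In order along the chromosome, among the autosomal regions called in both H3WT lists, 324 of them (44.7%) had an adjacent region that was lost only in H3R26C too, compared with 45.6% for regions lost only in H3R2C and 27.8% for those lost in both. They formed 526 runs, of which 125 held at least 2 and 43 at least 3 regions. The distance to the next region of the set was a median of 109.5 kb, and 49.5% had another within 100 kb.

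The longest run held 9 regions over 851 kb at chr9:57874301-58725050, across the bodies of Ccdc33, Cyp11a1 (the enzyme that begins steroid synthesis from cholesterol), Stra6 and Rec114, and no merged region with an H3R26C peak lay within that span. Of these 9 regions 7 and 8 were called in the H3R8C lists and 8 in H3R17C. The second run held 6 regions within 61.6 kb at chr4:89534701-89596300, beyond Dmrta1, and all 6 were called in both H3R8C lists and in H3R17C. Runs of 5 lay at chr15:101902651-102684200, with the starts of Krt4 and Krt78, at chr8:94419701-94928100, with Nlrc5 (a regulator of MHC class I genes), Pllp and Adgrg5, at chr11:94790001-95149900, with Dlx4, at chr3:55042651-57711700, with Ccna1 and Ankub1, and at chr10:75798751-76015550. The run on chromosome 10 had calls in 1 and 4 of its 5 regions in the H3R8C lists and in 1 in H3R17C, so that runs differed in how far the other mutants kept them.

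Keratin genes, which encode the intermediate filaments of epithelia, were a group picked out after their values had been seen. On chromosome 15 a keratin gene was the nearest protein-coding gene of 16 regions called in H3WT and H3R2C. Of the 16, 8 were lost only in H3R26C and 6 were kept, beside 39 of all 390 such regions on that chromosome (10%). On all autosomes the keratin counts were 9 of 27, with 15 kept, beside 9.78% of all regions called in H3WT and H3R2C. Because the group was picked by its values, nothing is read from these counts. The regions of a cluster are neighbours, and no test was made. Krt4 (chr15:101914701-101924900) had 0.861 and 1.15 in H3WT, 0.895 and 0.896 in H3R2C, 1.11 and 1.00 in H3R8C and 0.173 in H3R17C. Krt78 (chr15:101947851-101958600) had 0.770 and 1.19 in H3WT, 1.56 and 2.43 in H3R2C, 0.582 and 0.474 in H3R8C and 0.583 in H3R17C. Krt86 (chr15:101472051-101489700) had 0.478 and 0.744 in H3WT, 1.61 and 1.74 in H3R2C, 1.01 and 0.940 in H3R8C and 0.399 in H3R17C. The H3R2C libraries were the highest at Krt78 and Krt86 and level with H3WT at Krt4.

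The share of regions lost only in H3R26C varied between chromosomes. It was highest on chromosomes 11 (64 of 412 regions called in H3WT and H3R2C, 15.5%) and 9 (63 of 430, 14.7%) and lowest on chromosomes 14 (24 of 408, 5.88%) and 13 (7 of 236, 2.97%). On chromosome 13 the share lost only in H3R2C, among regions called in both H3WT and both H3R26C lists, was 25.8%. Scaled signal on chromosome 13 where called had a median of 0.989 and 1.20 in H3R26C, 0.756 and 0.784 in H3WT and 0.689 and 0.569 in H3R2C. The part of this chromosome-wide difference in the number of losses was not tested.

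**Figure D3:**
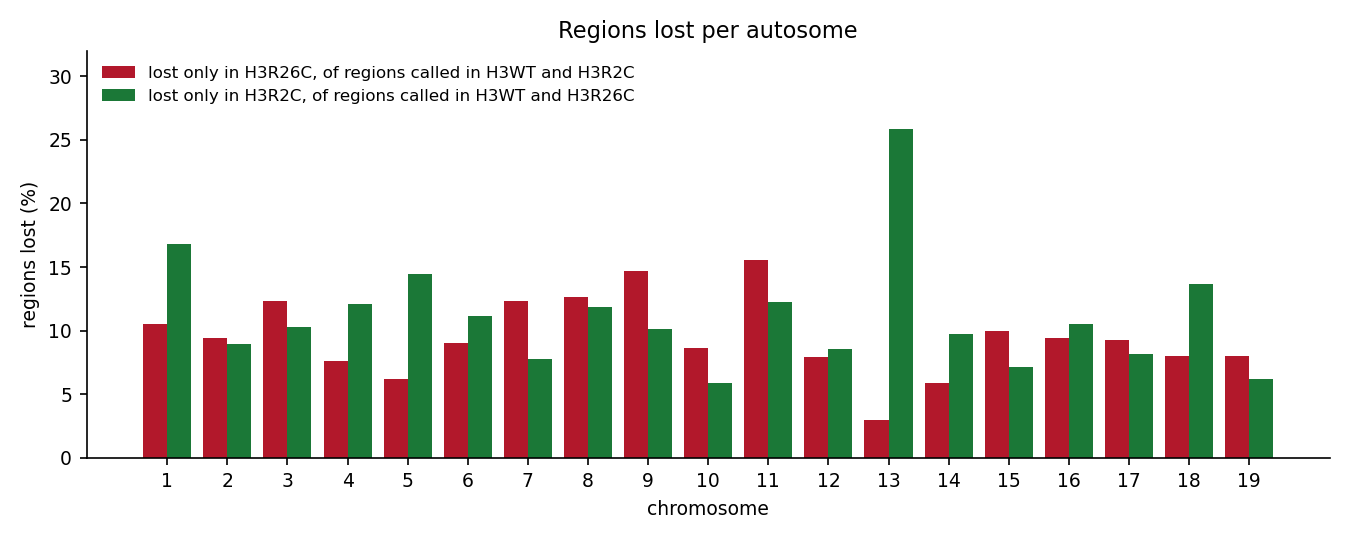
Percentage of regions lost on each autosome: only in H3R26C, out of regions called in both H3WT and both H3R2C lists, and only in H3R2C, out of regions called in both H3WT and both H3R26C lists. Chromosome 13 has the lowest share lost only in H3R26C (2.97%) and the highest lost only in H3R2C (25.8%).

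H3R8C and H3R17C took no part in the rule beyond the merging of H3R8C peaks, and most of the regions still had a peak in them, though fewer than among kept regions. Peaks were called at 461 of the 725 regions (63.6%) in H3R8C replicates 1 and 2, at 523 (72.1%) in H3R8C replicate 3 and at 531 (73.2%) in H3R17C. Over all autosomal regions called in both H3WT lists these shares were 82.9%, 85.3% and 82%. In kept regions they were 94.4%, 95.9% and 94.7%, and in regions lost only in H3R2C 71.7%, 76.2% and 64.1%. Peaks in all 3 lists were found at 339 regions (46.8%), and none at 64 (8.83%). Where called, the median scaled signal was 0.307 and 0.321 in H3R8C and 0.351 in H3R17C.

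Calls depended on the strength of the region in H3WT. In the 211 regions with an H3WT signal under 0.25, 46.9% and 55.9% had a peak in the H3R8C lists and 55.9% in H3R17C. In the 316 regions from 0.25 to 0.5 the shares were 61.1%, 74.1% and 72.2%, and in the 146 from 0.5 to 1 they were 81.5%, 82.2% and 91.1%. In the 52 regions of at least 1, the shares were 96.2%, 98.1% and 100%, against 99.5%, 99.5% and 99.8% of kept regions of that strength. In the weakest class the kept regions had 72.1%, 77.6% and 70.9%.

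**Figure D4:**
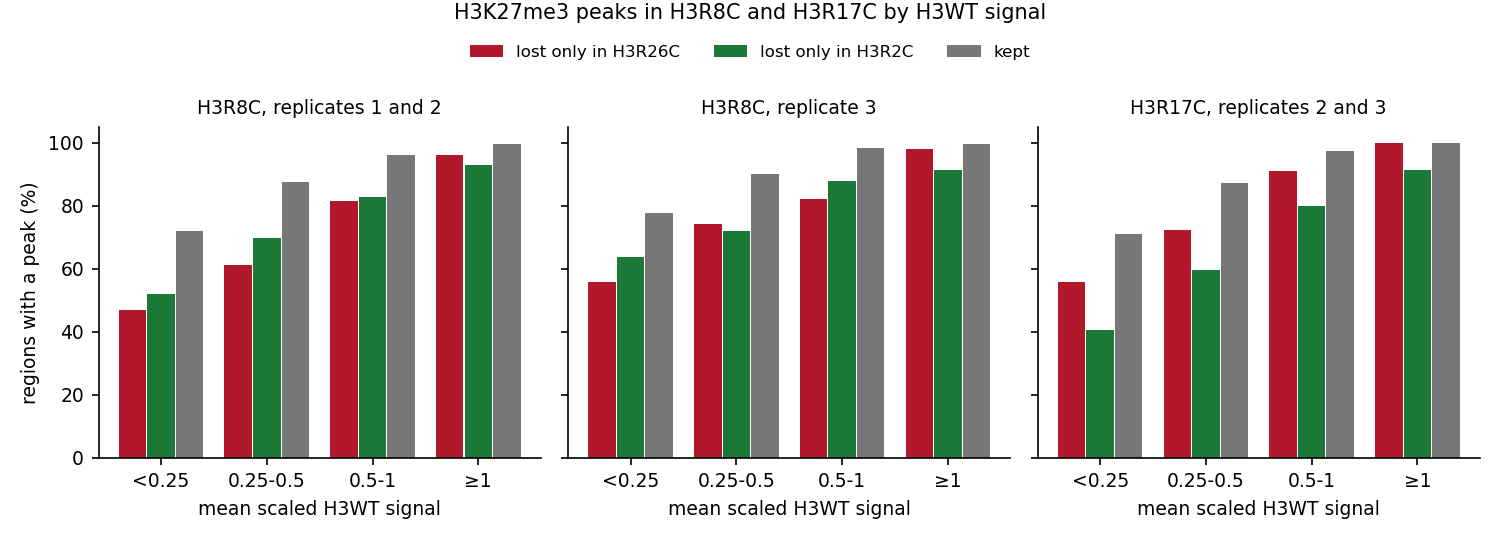
Percentage of regions with an H3K27me3 peak in each H3R8C and H3R17C list, by mean scaled H3WT signal (4 classes), for regions lost only in H3R26C, lost only in H3R2C and kept. Bars rise with H3WT signal in each set, and regions lost only in H3R26C go from 46.9% to 96.2% in the first panel.

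Among the 64 regions with no peak in H3R8C or H3R17C, the highest mean H3WT signal was 0.543. They included the start of Pth1r, the receptor for parathyroid hormone in bone and cartilage, at chr9:110739051-110753700, with 0.400 and 0.472 in H3WT and 2.01 and 1.93 in H3R2C. A region whose nearest protein-coding start was that of Smad1, at chr8:79465351-79478700, had 0.556 and 0.347 in H3WT and 1.21 and 0.835 in H3R2C. Both examples were picked after their values had been seen, and in both H3R2C was the highest genotype.

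The levels in H3R8C were also compared with those in H3WT by limma over all 20900 consensus regions (those with a peak in each library of some genotype). Of the 725 regions 96 were lower in H3R8C and 1 was higher at an adjusted p under 0.05, while 2.66% of all regions were lower and 3.3% higher. These counts are a description and support nothing, for the rule used the H3WT values, which favours a fall, and both H3R26C values were 0 in every region, which adds no spread to the fit. With the H3R26C libraries left out of the fit, an alternative added after the data were seen, 68 were lower (9.38%) and 2 higher. By that alternative 3.64% of all regions were lower and 4.49% higher, and 16.9% of regions lost only in H3R2C were lower. With all libraries in the fit, 2.00% of kept regions were lower and 0.504% higher. Kept regions were stronger in H3WT and have H3R26C values that vary. In regions lost only in H3R2C, whose H3R2C values were 0 in the same way, 11.4% were lower in the fit with all libraries. The median log2 difference was -0.46 over the 725 regions, -0.26 over those lost only in H3R2C, 0.04 over kept ones and 0 over all regions. The count rests on both H3R8C libraries, since it was 26 without replicate 1 and 27 without replicate 3, beside 334 of all regions each time. Only 1 region passed an adjusted p of 0.001, beside 150 of all.

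For the same reason the differences of single regions are given without p-values. Their SEs come from the same fit, to which the H3R26C values add no spread, so they are likely too small. The region beyond Tprg differed between H3R8C and H3WT by -1.38 on the log2 scale (SE 0.11) and that within Igfn1 by -2.46 (SE 0.28). The Casd1 region differed by -0.14 (SE 0.17), Dlx4 by -0.32 (SE 0.21) and Iqsec1 by 0.41 (SE 0.13). Differences are on the log2(scaled signal + 0.25) scale, which understates those of weak regions. The 1 region called higher, under the same limit, lay at Sv2b, which encodes a synaptic vesicle protein, with a difference of 1.11 (SE 0.21).

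HA peaks overlapped these regions more often than other H3K27me3 regions, in every genotype. The IgG samples were not used, so the HA peaks were not set against that control here. An HA peak overlapped 36.8% and 44.0% of the 725 regions in H3WT, 34.2% and 40.0% in H3R2C, 41.9% and 36.4% in H3R8C, 39.0% and 37.4% in H3R17C and 35.4% and 37.7% in H3R26C. Over all 18537 autosomal consensus regions the shares were 15.9% and 17.5% in H3WT, 21% and 24.1% in H3R2C, 15.3% and 12.2% in H3R8C, 16.7% and 16% in H3R17C and 13.4% and 13.7% in H3R26C. In kept regions they lay between 16.6% and 35.2%, in those lost in both between 8.51% and 17.3%, and in those lost only in H3R2C between 3.70% and 10.1%. The regions lost only in H3R26C therefore had the highest share of these sets in 10 of 10 lists. The H3WT HA lists were unlike the others. They held 15344 peaks over 213 Mb (replicates 1 and 2) and 37907 peaks over 135 Mb (replicate 3). The mutant lists held 46398 to 52083 peaks over 42.9 to 93.4 Mb.

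**Figure D5:**
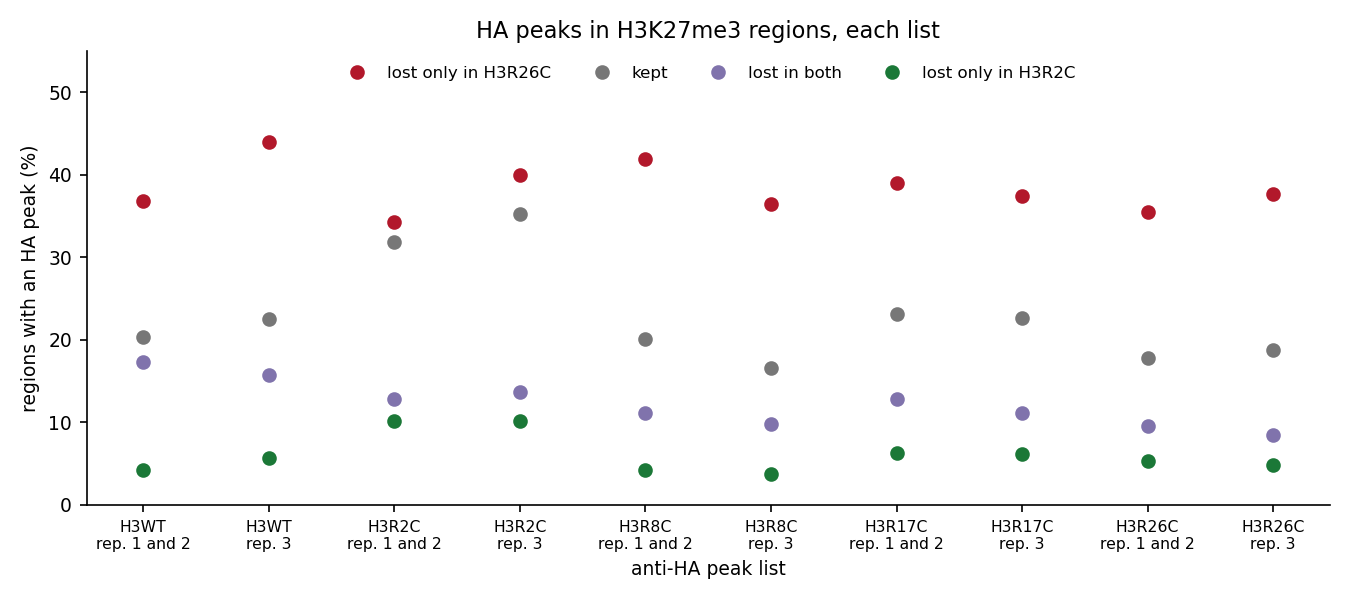
Percentage of regions of each set with an HA peak, in each of the 10 independent anti-HA lists (points). Regions lost only in H3R26C lie between 34.2% and 44.0%, above kept regions in each list and far above regions lost only in H3R2C.

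The share exceeded that of kept regions by 15.4 points (SD 6.66, n = 10 lists; range 2.35 to 21.8) and that of regions lost only in H3R2C by 32.2 points (SD 4.02, range 24.1 to 38.3). Both differences had the same sign in 10 of 10 lists. A two-sided exact permutation test over the signs of the lists gave p = 0.00195, the smallest that 1024 arrangements allow. The test was chosen after the values were seen, and 10 equal signs fix this p, so nothing is concluded from it. The lists also look at the same regions, so their agreement is not agreement between independent sets of regions. The smallest differences to kept regions came from the 2 H3R2C lists. Kept regions were longer, at a median of 11.35 kb against 6.25 kb. By the share of bp covered, the regions also stood above kept ones in 10 of 10 lists, by a mean of 9.11 points.

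The excess of HA peaks was present in each class of H3WT signal. In regions under 0.25 the median share over the 10 lists was 29.4%, against 10.0% of kept regions and 5.53% of those lost only in H3R2C. In regions of at least 1 it was 69.2%, against 31.2% and 6.58%, and in each of the 4 classes the share was above both sets in 10 of 10 lists. In windows with at least 10 protein-coding starts the median share was 45.6%, against 26.9% and 10.3%, and in poorer windows 25.2%, against 12.9% and 2.95%. Near start sites it was 45.8%, against 28.4% and 7.89%, and away from them 34.7%, against 16.9% and 3.69%. In 2 of these splits, near starts and in gene-poor windows, the share was above that of kept regions in 9 of 10 lists.

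HA peaks were found in all 10 lists at 59 regions (8.14%) and in none at 153 (21.1%). In all 10 lists they were found at 4.78% of kept regions, 0.864% of those lost only in H3R2C and 3.72% of all regions called in both H3WT lists, and in none at 37.3%, 72.3% and 44.3%. The 59 regions had a median of 22 protein-coding starts around them and 29 were near a start site, whereas the 153 had a median of 8 starts around them and 31 were near a start site. The former were longer, at a median of 8.95 kb against 5.10 kb, and stronger in H3WT, at a median of 0.595 against 0.274. They had peaks in the H3R8C lists at 83.1% and 88.1%, against 51.6% and 55.6%. Calls in H3R8C rose with H3WT signal, as given above, so nothing is read from this difference. Among the 59 were the regions of Lrrc74a, Dlx4, Krt4, Krt78, Krt81, Krt86, Ncan (neurocan, a proteoglycan of brain matrix) and Notum, a secreted inhibitor of Wnt ligands. In the 10.75 kb region of Krt78 the HA peaks covered between 8300 and 10750 bp in each of the 10 lists. At Casd1 HA peaks were present in 7 of 10 lists, among them both of H3R26C, with 750 and 3300 bp of the region covered.

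The share of regions with an HA peak, relative to kept regions, did not differ detectably between H3R26C and the other genotypes. The excess over kept regions was 18.2 points in the 2 H3R26C lists (SD 0.886) and 14.7 points in the 8 others (SD 7.34), a difference of 3.57 points by the exact permutation test (two-sided, 45 arrangements, p = 0.667). With equal numbers of HA peaks the difference was -1.04 points, and by share of bp -1.44 points, so its direction was not fixed. Of the 472 regions with HA signal in at least 2 libraries, limma found 2 lower and 2 higher in H3R26C than in H3R2C, where 4.04% of all 6138 regions tested were lower and 0.261% higher. Both lower ones, a region 4.29 kb from 4933412E24Rik and another within Slc1a2 whose nearest protein-coding start is that of Cd44, had HA peaks in the H3R2C libraries alone, so they entered the test through H3R2C, and nothing is read from their count. Among the higher ones was the Stra6 region (log2 difference 2.32, SE 0.51, limma adjusted p 0.0429). Against H3WT limma called 0 regions in either direction, of the 472 tested as of all 6138 (0% and 0%). At an unadjusted p under 0.05, 25 of the 472 were lower and 18 higher, beside 451 and 147 of all 6138. Without the filter limma called 18 of the 725 lower and 17 higher, beside 302 and 112 of all 20900. The H3WT HA lists differed from the mutant ones in the number and reach of peaks, as given above. The count of 0 therefore does not show that HA signal was equal. Leaving out any of 9 of the 10 HA libraries (all but H3WT replicate 1) brought both counts against H3R2C to 0.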

How the data were processed

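CUT&RUN peak lists with anti-H3K27me3 and anti-HA were used from 29 samples, and 1 list was left out because its name gave another mark than its label. Samples with IgG or anti-H3K4me3 were not used here. Per the methods, the authors aligned 75 bp single-end reads to mm10 with Rsubread 1.30.6 and called peaks with SEACR 1.3 (stringent, normalised, threshold 0.01). The deposited signal of a peak, total and maximum, was a whole number not scaled to depth, with edges on a 50 bp grid. Read filters are not given in the sources used here. Total reads per library are stated by the study, but the lists hold no counts and these totals were not used here, so that the spread between lists is the measure of precision. At a fixed numeric threshold SEACR retains the strongest blocks of a library, and a block just below the level of a list counts as absent.

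Labelled replicates with identical values were counted as 1. The study describes its replicates as biologically independent, but with a pair of lists per group identical, p-values measure only the spread between the lists that remained. Overlapping or touching peaks were merged, and called means overlapped by at least 1 bp. limma 3.58.1 (lmFit, eBayes with trend) was run on log2(scaled signal + 0.25), with Benjamini-Hochberg adjustment over all regions tested and a threshold of 0.05, and was tested on simulated data. HA signal was shared out by overlapped bp, and regions with it in at least 2 libraries were tested. Annotation was GENCODE (GRCm38). Regions were named by rank (10 longest, 10 strongest in H3WT, 5 longest runs, listed genes, 3 on either side of the rule). An item of the named regions is not reported here. The regions and lists were chosen with earlier results of these data known. Python 3.11.15 and R 4.3.3 were used.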

Additional observations from a re-analysis of the deposited data

How the results depend on the processing

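No group had 4 or more independent lists, and H3R17C had 1 for H3K27me3, so the spread within a genotype rests on a pair of lists. Most regions lie near the calling level, so that absence in H3R26C means below that level and not absence of the mark.

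The number of regions was 443 with the upper 50% of peaks and 1619 with all 3 labelled replicates, and 828 to 1764 when a library was left out. The share near a start site was 29.6% after merging within 1 kb, 32.9% when peaks had to cover 50% of a region and 19.7% with all 3 labelled replicates, and 21.7% to 26.2% when a library was left out. The share called in H3R17C was 81.0% with the upper 50% of peaks, 66.0% with 50% coverage and 57.9% with all 3 labelled replicates (60.2% to 80.7% when a library was left out). The mean share called in H3R8C was 54.9% with all 3 labelled replicates (56.3% to 77.1% when a library was left out), and that with a neighbour in the set was 48.8% (43.7% to 54.8%). Equal numbers of peaks and leaving H3R8C out of the merge moved none of these.

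The HA difference between H3R26C and the other genotypes turned to -1.04 with equal numbers of HA peaks and to -1.44 by share of bp, and ranged from 1.31 to 4.59 when a library was left out. It passed no threshold in any setting.

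By limma, regions lower in H3R8C numbered 154 with a pseudocount of 0.05, beside 688 of all 20900. They numbered 160 with signal as deposited (675 of all), 161 with maximum signal (691) and 1 at an adjusted p of 0.001 (150). With a mean signal of at least 0.25, 38 of the 405 regions left were lower, beside 205 of 10110. When a library was left out they numbered 26 to 133, beside 334 to 739 of all. Those higher numbered 2 with a pseudocount of 1, beside 656 of all. With the H3R26C libraries left out of the fit (added after the data were seen), 68 were lower and 2 higher, beside 761 and 938 of all. Without trend 5 were higher, beside 737 of all. Those higher numbered 0 with signal as deposited, maximum signal, a mean of at least 0.25 or 0.001 (753, 776, 127 and 322 of all). When a library was left out they numbered 0 to 1. The replicate numbers paired no samples (correlations of deviations between -0.01 and 0.21 for H3K27me3 and -0.26 and 0.20 for HA). With the replicate block 54 were lower and 0 higher in H3R8C, beside 445 and 614 of all, and 0 and 0 for HA against H3R2C. With signal required in every library no value was possible for H3K27me3, since the regions have none in H3R26C.

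For HA in H3R26C against H3R2C, lower and higher numbered 4 and 7 with a pseudocount of 0.05, beside 269 and 26 of all 6138. They were 4 and 7 as well with signal as deposited (301 and 38 of all) and with maximum signal (300 and 39). They were 0 and 0, as over all regions, with a pseudocount of 1, without trend and at 0.001. With signal in every library 0 and 2 of 59 were called, beside 0 and 2 of 528. Without a filter they were 14 and 31, beside 579 and 119 of all 20900. Leaving out a library gave 0 to 3 lower and 0 to 2 higher, beside 0 to 197 and 0 to 14 of all. Against H3WT they numbered 3 lower with signal as deposited, beside 80 of all 6138, and 2 and 1 with maximum signal, beside 47 and 23. Without a filter they numbered 18 and 17, beside 302 and 112 of all 20900. When a library was left out they numbered 0 in both directions.

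Added after the data were seen, the mean HA excess kept its sign with the upper 50% of HA peaks (11.6 points over kept regions) and with equal numbers (9.71). It also did so within regions near or away from starts and in gene-rich or gene-poor windows. These settings look at the same lists and regions, so they are a description.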
